A study of Mus musculus with 8 samples.

Results

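The genes described here are those of DNA damage signalling and repair, a named list of 37 members. They were chosen by gene symbol, as the probe sets whose platform annotation held exactly 1 symbol and that symbol was on the list. Of the 37, 36 had at least 1 such probe set and 85 probe sets in all, among 18194 genes named on the array. Rbbp8 was not analysed here. All 36 passed the filter on dim genes, a mean signal of 22.1, and they are a small part of the 14267 genes tested. RNA came from mouse embryonic stem cells of the strain cross 129X1 x 129S1, in 4 groups of 2 arrays that the labels call biological replicates. In the shTop1 coculture and the shp53 coculture, cells with a short hairpin RNA against Top1 or p53 shared a dish with mock cells at 1:4 for 4 days. In the shTop1 mix and the shp53 mix, which the labels call controls, each kind of cell had its own dish for 4 days and the RNA was combined at 1:4. Every group therefore held hairpin-bearing cells or their RNA as the smaller part, every group held mock material, and none held mock material alone. The comparison of coculture with mix asks what changes when the cells live together, beyond what the hairpin does to the cells that carry it. The labels do not say whether a hairpin line was a single clone, or whether the mixes shared 1 preparation of mock RNA. Nor do they say whether the replicates came from separate cultures, so the p-values measure only the spread between these samples. RNA of hairpin cells made up 20% of each mix, and the share of hairpin cells in the cocultures at 4 days was not measured.

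Cells sense broken or stalled DNA through kinases at the lesion, which halt the cell cycle and recruit repair proteins. Double-strand breaks are rejoined either by homologous recombination, which copies the sister chromatid, or by non-homologous end joining, which ligates the ends, while nicks, crosslinks, bulky adducts and mispairs each have their own pathway. Embryonic stem cells divide fast with a short G1 phase and are known to rely strongly on homologous recombination. Topoisomerase I, the product of Top1, relaxes DNA by making a transient single-strand break, and p53 is the transcription factor that many of these kinases act on. Much of this system is controlled by phosphorylation and ubiquitination of the proteins, which an RNA array does not measure.

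The letters upstream of 5 members are shown first, because these members recur in the results below. They are those with a promoter sequence among the 6 of 36 members whose coculture and mix arrays did not overlap in either knockdown. All 6 kept the same direction in both knockdowns, and 14.5% of the 14267 genes tested met this description. The choice therefore does not set the members apart from other genes. Each stretch shown is the 250 bases before the annotated start in RefSeq (build GRCm38.p6), read on the gene's own strand. Capitals mark matches on either strand to 3 short motifs, TTTNNCGC, GGGCGG (the core of the GC box) and CCAAT. TTTNNCGC, with any base at N, is looser than the consensus bound by E2F factors, which drive S-phase genes. The regions are chr11:101551956-101552205 on the minus strand for Brca1, chr5:110839733-110839982 on the plus strand for Chek2, chr11:82780859-82781108 on the plus strand for Lig3, chr8:9977681-9977930 on the minus strand for Lig4 and chr16:32277211-32277460 on the plus strand for Rnf168.
Brca1: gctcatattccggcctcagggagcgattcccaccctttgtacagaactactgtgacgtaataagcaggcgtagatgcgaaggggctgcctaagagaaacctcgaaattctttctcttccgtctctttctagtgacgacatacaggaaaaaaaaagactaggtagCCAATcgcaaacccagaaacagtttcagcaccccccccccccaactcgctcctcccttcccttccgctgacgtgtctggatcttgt
Chek2: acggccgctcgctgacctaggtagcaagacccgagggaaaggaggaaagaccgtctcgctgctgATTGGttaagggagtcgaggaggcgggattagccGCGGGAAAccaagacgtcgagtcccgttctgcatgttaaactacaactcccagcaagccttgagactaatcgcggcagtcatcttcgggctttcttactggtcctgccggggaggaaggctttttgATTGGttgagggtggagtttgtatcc
Lig3: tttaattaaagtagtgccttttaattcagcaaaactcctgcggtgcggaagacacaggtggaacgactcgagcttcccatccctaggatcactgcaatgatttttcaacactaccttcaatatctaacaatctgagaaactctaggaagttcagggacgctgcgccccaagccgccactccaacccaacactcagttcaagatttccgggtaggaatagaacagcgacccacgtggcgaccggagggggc
Lig4: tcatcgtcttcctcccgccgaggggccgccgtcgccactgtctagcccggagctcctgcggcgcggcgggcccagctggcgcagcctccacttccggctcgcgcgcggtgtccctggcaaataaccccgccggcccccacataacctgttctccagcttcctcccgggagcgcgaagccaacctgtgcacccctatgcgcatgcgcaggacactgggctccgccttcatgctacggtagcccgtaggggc
Rnf168: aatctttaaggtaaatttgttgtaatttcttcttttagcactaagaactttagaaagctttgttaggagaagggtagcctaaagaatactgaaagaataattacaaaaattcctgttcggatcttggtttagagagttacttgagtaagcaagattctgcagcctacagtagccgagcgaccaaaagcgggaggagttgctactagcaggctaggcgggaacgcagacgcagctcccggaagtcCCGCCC

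Chek2 held 1 match to TTTNNCGC and 2 to CCAAT, Brca1 held 1 CCAAT and Rnf168 held 1 GGGCGG, while the Lig3 and Lig4 stretches held none of the 3. No motif was common to these 5 stretches. The Lig4 stretch was 70.0% G or C with 27 CG pairs, against 43.6% and 9 for Rnf168. Of the 36 members, 30 had a promoter sequence in the RefSeq table used. TTTNNCGC stood in 5 of these 30 (16.7%), namely Brca2, Chek2, Mdc1, Topbp1 and Xrcc6, against 5.28% of 17492 protein-coding genes taken at their most upstream start. GGGCGG stood in 18 members (60.0%) against 42.7% of all, and CCAAT in 14 members (46.7%) against 36.5%. The members' median was 57.6% G or C and 17.5 CG pairs, against 55.2% and 10.0 over all. A match is a description of letters and not evidence of binding.

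The arrays were alike in the Actb 3'/5' ratio, a sign of RNA integrity, which lay between 1.38 and 1.60. Mean signal lay between 812 and 896 per array. The authors' scaling brings these means together, so they do not measure quality. Top1 had signals of 5281 and 5283 in the shTop1 coculture and 5110 and 5316 in the shTop1 mix, against 5572 and 5886 in the shp53 coculture and 5456 and 5682 in the shp53 mix. The shTop1 arrays lay below all shp53 arrays for this gene, with a log2 difference of -0.11 over both conditions. The direction turned with the mean of its probe sets (0.15). All 10 embryonic stem cell markers were measured above the filter, with Pou5f1, the core pluripotency factor, between 12085 and 14351. Of 12 fibroblast markers, 5 (Col3a1, Postn, Twist2, Lum and Dcn) lay below the filter.

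Averaged over both knockdowns, no member passed the test between coculture and mix (limma, smallest adjusted p = 0.357), and 0% of the 14267 genes did. Of the 36 members, 21 lay above 0 (58.3%, against 55.3% of all genes), with a median log2 difference of 0.016 against 0.022 over all genes. At an unadjusted p under 0.05 there were 2 members, both lower in coculture, the DNA ligase genes Lig4 and Lig3. They make 5.56% of the members, while 11.7% of all genes reached that level (7.09% higher and 4.63% lower). A log2 difference beyond 0.25 in either direction was also found for 2 members (5.56%), against 22% of all genes and 12.1% of the 9039 genes within the members' range of mean signal. The groups did not overlap for 0 members higher in coculture, against 5.75% of all genes, and for 3 members lower in coculture, Chek2, Lig4 and Lig3, against 3.35% of all genes. In RNA from whole dishes, fewer cells of a kind and less RNA per cell cannot be told apart.

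Missing the threshold does not show that a member stayed the same, and the 95% intervals give the range of differences the arrays allow. They lay wholly within 0.5 of 0 for 34 of 36 members (94.4%), against 60.7% of all genes, with a median of 0.208 from the estimate to either bound among the members. The width of an interval goes with signal. The median standard error was 0.085 among the members, 0.113 over all genes and 0.094 over genes within the members' range of mean signal. The exceptions were Lig4 (-0.55 to -0.08) and Ercc4 (-0.47 to 0.56). For scale, a transcript may double in the hairpin cells alone, from an equal level in both kinds of cell. If these cells gave 20% of the RNA, the whole would rise by 0.26, and complete loss there would give -0.32. Both values assume the same change in both knockdowns and a share still at 20% in coculture, which was not measured. The interval held 0.26 for 12 of the 36 members and -0.32 for 7. With another share these values and counts could differ.

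**Figure D1:**
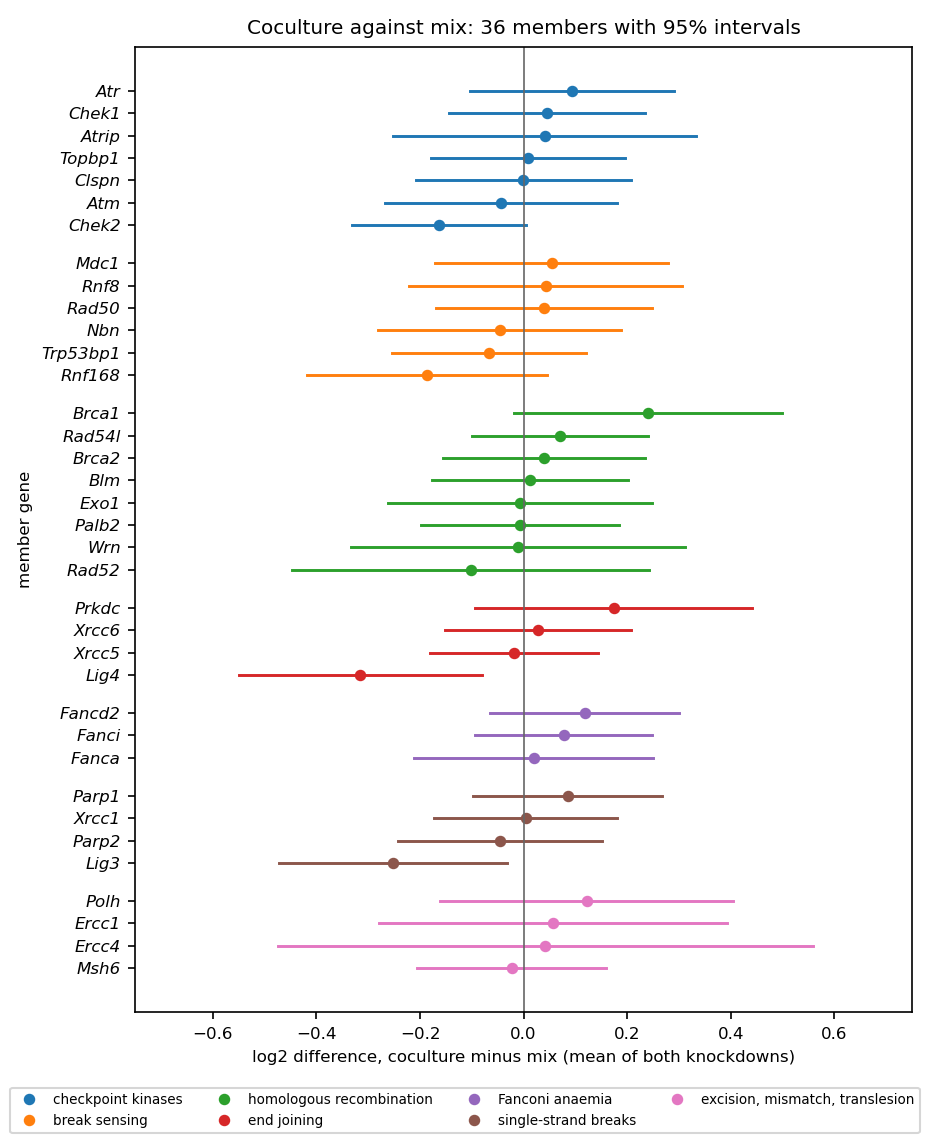
Log2 difference, coculture minus mix averaged over both knockdowns (x axis), for each of the 36 members (y axis, grouped and coloured by role), with bars for the 95% interval of limma's fit. The intervals of Lig4 and Lig3 lie wholly below 0, all others include 0, and Ercc4 has the widest.

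The checkpoint kinases and their partners comprised 7 members, 4 above 0 and 3 below, with a median of 0.008 in the averaged comparison. Chek2, the effector kinase that ATM switches on after double-strand breaks, had signals of 1489 and 1487 in the shTop1 coculture, against 1698 and 1542 in the shTop1 mix. With shp53 it had 1439 and 1387 in the coculture, against 1614 and 1653 in the shp53 mix. All 4 coculture values lay below all 4 mix values. The log2 difference was -0.16 (95% interval -0.33 to 0.005, limma unadjusted p = 0.0552, adjusted p = 0.433), a ratio of 0.893 on the scale of signal plus 16.

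Atm, the kinase at the head of the response to double-strand breaks, had its smallest p between hairpins. Its signals were 670 and 724 in the shTop1 coculture and 717 and 588 in the shTop1 mix, against 706 and 726 in the shp53 coculture and 860 and 777 in the shp53 mix. The 2 shp53 mix arrays were the highest, and the shTop1 values of 724 and 717 lay between those of the shp53 coculture. Between shTop1 and shp53 samples the log2 difference was -0.18 (limma unadjusted p = 0.0934, adjusted p = 0.999), with 0.001 for the mean of its probe sets and -0.11 without shTop1 mix replicate 2. Atr, the kinase of stalled forks, lay at 0.09 in the averaged coculture comparison, and its partner Atrip at 0.04. Topbp1, the ATR activator, lay at 0.008, and Clspn, the adaptor that presents CHK1 to ATR, at -0.001. Chek1, the kinase ATR acts on, lay at 0.05. Over these 7 genes the lowest interval bound was -0.33 and the highest 0.33.

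The proteins that sense double-strand breaks and mark the surrounding chromatin gave 6 members, 3 above 0 and 3 below. Rnf168, a ubiquitin ligase that spreads the mark on histones beside a break, had signals of 796 and 799.6 in the shTop1 coculture, against 823 and 1005 in the shTop1 mix. With shp53 it had 834 and 831 in the coculture, against 879.98 and 1026 in the shp53 mix. Within each knockdown both coculture values lay below both mix values, while the shp53 coculture overlapped the shTop1 mix. The log2 difference was -0.19 (95% interval -0.42 to 0.05, limma unadjusted p = 0.0972, adjusted p = 0.492), and -0.12 without shTop1 mix replicate 2. These values come from the brighter of 2 Rnf168 probe sets. The other, with a mean signal of 129, overlapped with shTop1 (0.01), had -0.36 with shp53 and -0.17 averaged. Mdc1, the scaffold that binds the phosphorylated histone at breaks, had 1249 and 1524 in the shTop1 coculture, against 1278 and 1228 in the shTop1 mix. In the shp53 coculture it had 1385 and 1224, against 1341 and 1317 in the shp53 mix. Its groups overlapped in both knockdowns. Its smallest p was with shTop1, a log2 difference of 0.14 (limma unadjusted p = 0.333, adjusted p = 0.801) that rested on shTop1 coculture replicate 2 and was -0.004 without that array. In the averaged comparison Rad50 and Nbn, which encode subunits of the break-sensing complex, lay at 0.04 and -0.05. Trp53bp1, whose product shields ends from resection, lay at -0.07, and Rnf8, the ligase upstream of Rnf168, at 0.04.

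Homologous recombination had 8 members, 4 above 0 and 4 below, with a median of 0.003. Brca1, which promotes end resection and recruits the recombination machinery, had signals of 2881 and 3557 in the shTop1 coculture, against 2734 and 2469 in the shTop1 mix. In the shp53 coculture it had 2948 and 3519, against 2902 and 2785 in the shp53 mix. Replicate 2 was the highest of each coculture, and both cocultures lay above their own mixes, replicate 1 of shp53 by little. The log2 difference was 0.24 (95% interval -0.02 to 0.50, limma unadjusted p = 0.0643, adjusted p = 0.45), the highest of all 36 members in the averaged comparison, and the mean of its 4 probe sets gave 0.12. Wrn, a RecQ helicase, had 217 and 219 in the shTop1 coculture and 264 and 218 in the shTop1 mix, against 321 and 265 in the shp53 coculture and 317 and 229 in the shp53 mix. Of the shTop1 arrays 3 lay below every shp53 array and shTop1 mix replicate 1 overlapped. The shTop1 minus shp53 difference was -0.28 (95% interval -0.60 to 0.05, limma unadjusted p = 0.0803, adjusted p = 0.999). It was -0.17 without shp53 mix replicate 1 and -0.16 with the mean of its probe sets. In the averaged coculture comparison Brca2, which loads the recombinase, lay at 0.04 and Palb2, which links it to BRCA1, at -0.007. The annealing factor Rad52 lay at -0.10, the motor protein gene Rad54l at 0.07 and the helicase gene Blm at 0.01. Exo1, the resecting exonuclease, lay at -0.006 by its brightest probe set. An Exo1 probe set with a mean signal of 408 had every coculture value below every mix value. Its log2 difference was -0.23 (limma unadjusted p = 0.063, adjusted p = 0.489), and the mean of the 3 Exo1 probe sets gave -0.17.

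Non-homologous end joining had 4 members, with Lig4 and Prkdc at opposite ends. Lig4, the ligase that seals the ends, had signals of 272 and 349.5 in the shTop1 coculture, against 422 and 411 in the shTop1 mix. In the shp53 coculture it had 343 and 319, against 389.9 and 383 in the shp53 mix. All 4 coculture arrays lay below all 4 mix arrays, and shTop1 coculture replicate 1 was the lowest. The log2 difference was -0.32 ± 0.10 (SE), a ratio of 0.804, with the smallest p among the members (limma unadjusted p = 0.0166, adjusted p = 0.357). Leaving out 1 array, it ranged from -0.40 to -0.23. Its sign could not turn there, since all coculture arrays lay below all mix arrays. Lig4 was read by 1 probe set. Prkdc, the catalytic subunit of the DNA-dependent protein kinase, had 893 and 903 in the shTop1 coculture, against 845 and 743 in the shTop1 mix, and 994 and 959 in the shp53 coculture, against 997 and 750.5 in the shp53 mix. Its groups overlapped with shp53, and its log2 difference was 0.17 (95% interval -0.09 to 0.44), and 0.07 without shp53 mix replicate 2. The Ku subunit genes Xrcc5 and Xrcc6, whose products hold the ends, lay at -0.02 and 0.03. Xrcc5 had the lowest spread of all members, between 2571 and 2754 over the 8 arrays.

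The Fanconi anaemia genes, which handle crosslinks between the strands, gave 3 members, all above 0 in the averaged comparison with a median of 0.08. Fanca, a subunit of the core ligase, had signals of 773 and 922 in the shTop1 coculture and 821 and 856.5 in the shTop1 mix, against 949 and 975 in the shp53 coculture and 865 and 1024 in the shp53 mix. The shTop1 and shp53 samples overlapped, with 3 of 4 shTop1 arrays below every shp53 array. The difference of shTop1 minus shp53 was -0.17 (95% interval -0.41 to 0.06, limma unadjusted p = 0.114, adjusted p = 0.999), and -0.11 without shTop1 coculture replicate 1. Fancd2 and Fanci form the clamp that is ubiquitinated at a crosslink. Fancd2 had 873 and 952 in the shTop1 coculture, against 771 and 862 in the shTop1 mix, and 841 and 810.1 in the shp53 coculture, against 779 and 784 in the shp53 mix. Its cocultures lay above their own mixes in both knockdowns, and the averaged log2 difference was 0.12 (95% interval -0.06 to 0.30). This value comes from 1 of 4 Fancd2 probe sets, the others had differences from -0.49 to -0.05, and the mean of the 4 gave -0.23. The mean of its probe sets also turned Fanca, from 0.02 to -0.01, in this comparison. Fanci had 1046 and 1025 in the shTop1 coculture, against 894 and 931 in the shTop1 mix, and 1021 and 1037 in the shp53 coculture, against 995 and 1103 in the shp53 mix. Its groups were apart with shTop1 (0.18) and overlapped with shp53 (-0.03), and the difference between those 2 values was not called (0.21, limma unadjusted p = 0.192, adjusted p = 1.0).

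Single-strand break repair had 4 members. Lig3, the ligase that seals nicks together with XRCC1, had signals of 963 and 842 in the shTop1 coculture, against 1132 and 1040.2 in the shTop1 mix. In the shp53 coculture it had 834 and 959.5, against 1104 and 1014 in the shp53 mix. All 4 coculture arrays lay below all 4 mix arrays. The log2 difference was -0.25 ± 0.09 (SE), a ratio of 0.840 (limma unadjusted p = 0.0311, adjusted p = 0.382). This value comes from 1 of 5 Lig3 probe sets, the others had differences from 0.003 to 0.32, and the mean of the 5 gave 0.06. Parp1, the abundant enzyme that detects nicks and builds poly(ADP-ribose), lay at 0.09 and its relative Parp2 at -0.05. The scaffold gene Xrcc1 lay at 0.004.

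The remaining 4 members act in excision repair, mismatch repair and translesion synthesis, 3 above 0 and 1 below. Ercc1 encodes a subunit of the nuclease that cuts beside bulky adducts. Its signals were 777 and 934 in the shTop1 coculture and 644 and 833 in the shTop1 mix, against 807 and 1047 in the shp53 coculture and 926 and 1051 in the shp53 mix. The replicates of each group spread widely, with shTop1 mix replicate 1 the lowest, and the shTop1 minus shp53 difference was -0.26 (95% interval -0.60 to 0.07, limma unadjusted p = 0.103, adjusted p = 0.999). The other Ercc1 probe set gave 0.14 for it. Ercc4, the partner subunit, had 226 and 180.0 in the shTop1 coculture, against 219.9 and 143 in the shTop1 mix, and 154 and 272 in the shp53 coculture, against 225 and 213 in the shp53 mix. It had the largest spread within groups of any member, with a highest value 1.90 times the lowest, and its averaged coculture difference was 0.04. Msh6, which recognises mispaired bases, lay at -0.02, with signals between 11365 and 13037. Polh, the polymerase that copies past ultraviolet damage, lay at 0.12 (95% interval -0.16 to 0.41), and at 0.03 without shp53 coculture replicate 1.

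**Figure D2:**
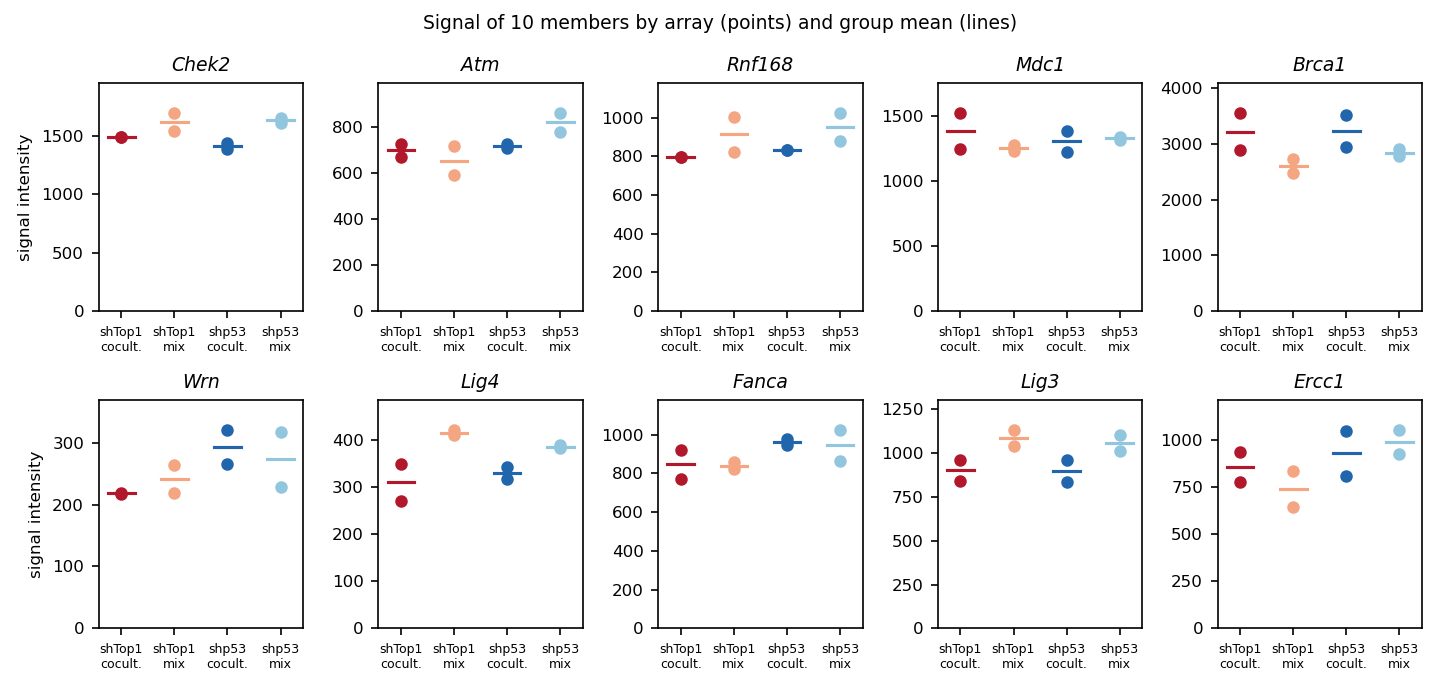
Signal (quantile-normalized intensity, linear axis from 0) in every array for the 10 members with the smallest p of their role group, with points for arrays and lines for the means of the 4 groups of 2. Chek2, Lig4 and Lig3 have all 4 coculture arrays below all 4 mix arrays, and in the other panels these 8 arrays overlap.

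Within each knockdown, no member passed the test. With shTop1, 0% of all genes passed, the smallest adjusted p of a member was 0.575 (limma), 22 of 36 members lay above 0 (55.6% of all genes did) and the median was 0.037, against 0.030 over all genes. At an unadjusted p under 0.05 stood Lig4 alone among the members, lower in coculture (log2 difference -0.42, limma unadjusted p = 0.022, adjusted p = 0.575). Of all genes 8.2% reached that level, 3.08% lower and 5.12% higher. The shTop1 coculture and mix arrays did not overlap for 8 members higher (Rnf8, Brca1, Rad54l, Prkdc, Fancd2, Fanci, Parp1 and Polh) and 5 lower (Atrip, Chek2, Rnf168, Lig4 and Lig3). With 2 arrays a group this is common, at 24.5% of all genes higher and 16.9% lower. With shp53, again 0% of all genes passed and the smallest adjusted p of a member was 0.749. The median was 0.005 against 0.014 over all genes, 18 of 36 members lay above 0 (53% of all genes did) and 0 members reached an unadjusted p under 0.05 (6.86% of all genes did). The arrays did not overlap for 4 members higher (Rad50, Brca1, Fancd2 and Xrcc1), against 20.9% of all genes, and 6 lower (Atm, Chek2, Trp53bp1, Rnf168, Lig4 and Lig3), against 17.1%.

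Between the knockdowns, which share no array although the mixes may share mock RNA, 6 members were apart in both and in the same direction. By the probe sets of highest mean, Brca1 and Fancd2 were higher in both cocultures, and Chek2, Rnf168, Lig4 and Lig3 were lower. They are 6 of 36 members, and 14.5% of all genes met the same description. No member was apart in both with opposite directions, against 3.55% of all genes. The difference of the coculture effects, shTop1 minus shp53, passed for 0 members, as for 0% of all genes (limma, smallest adjusted p of a member 1.0). It had an unadjusted p under 0.05 for 0 members, against 4.3% of all genes. Its median was 0.02, with 23 of 36 members above 0 (51.5% of all genes were), and it ranged from -0.31 for Atrip, which was lower in the shTop1 coculture (152 and 160.3, against 168 and 172 in its mix) and overlapped with shp53, to 0.31 for Ercc1. Without shp53 mix replicate 1 the Atrip value was -0.07, and without shp53 coculture replicate 1 that of Ercc1 was 0.13. The 4 genes of excision, mismatch and translesion repair all had values above 0 by the probe sets used, from 0.07 to 0.31. Leaving out 1 array took Ercc4 and Polh as low as -0.12 each. Other probe sets of Ercc1, Ercc4 and Polh had values of both signs, from -0.75 (Ercc4) to 0.45 (Polh).

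**Figure D3:**
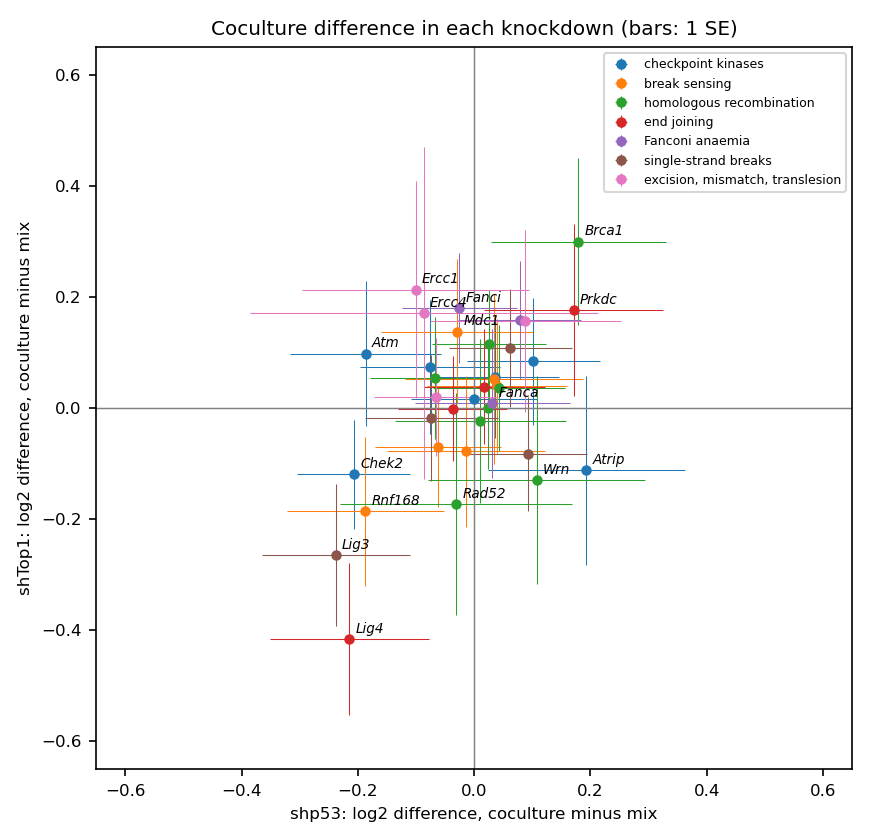
Log2 difference, coculture minus mix, of the 36 members with shp53 (x axis) and with shTop1 (y axis), coloured by role, with bars of 1 standard error of limma's fit. Lig4, Lig3, Rnf168 and Chek2 lie at the lower left and Brca1 at the upper right, and most members lie within 0.2 of 0 on both axes.

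Between hairpins, averaged over coculture and mix, 12 members were above 0 in shTop1 samples and 24 below, with a median of -0.03 against -0.004 over all genes, of which 48.7% lay above 0. Centring each array on its median put the members at 0.03 and all genes at 0.05, so the sign of the members' median depends on the scaling while they lay below all genes under both. No member passed (limma, smallest adjusted p = 0.999), as for 0% of all genes, and 0 reached an unadjusted p under 0.05, against 4.7% of all genes. The groups of 4 arrays overlapped for every member, while 1.02% of all genes were apart and higher and 1.07% apart and lower. The lowest values belonged to Wrn (-0.28), Ercc1 (-0.26), Atm (-0.18) and Fanca (-0.17), and the highest to Fancd2 (0.10).

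Array by array the members moved little. Their pooled standard deviation within groups had a median of 0.102 on the log2 scale, against 0.165 over all genes and 0.123 over genes within their range of signal. The median of the members in an array lay between -0.04 (shTop1 mix replicate 2) and 0.03 (shp53 coculture replicate 2) of the gene means. No array carried most of the extremes, and shTop1 coculture replicate 2 was the farthest array for 7 members, the most of any. By role, the Fanconi genes had medians of 0.06 and 0.04 in the shTop1 coculture arrays, against -0.12 and -0.06 in the shTop1 mix arrays. In the shp53 coculture they had 0.02 and 0.04, against -0.05 and 0.13 in the shp53 mix, so these overlapped. The homologous recombination genes had -0.01 and 0.04 in the shTop1 coculture, against -0.02 and -0.06 in its mix, and -0.04 and 0.08 in the shp53 coculture, against 0.006 and -0.02 in its mix.

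**Figure D4:**
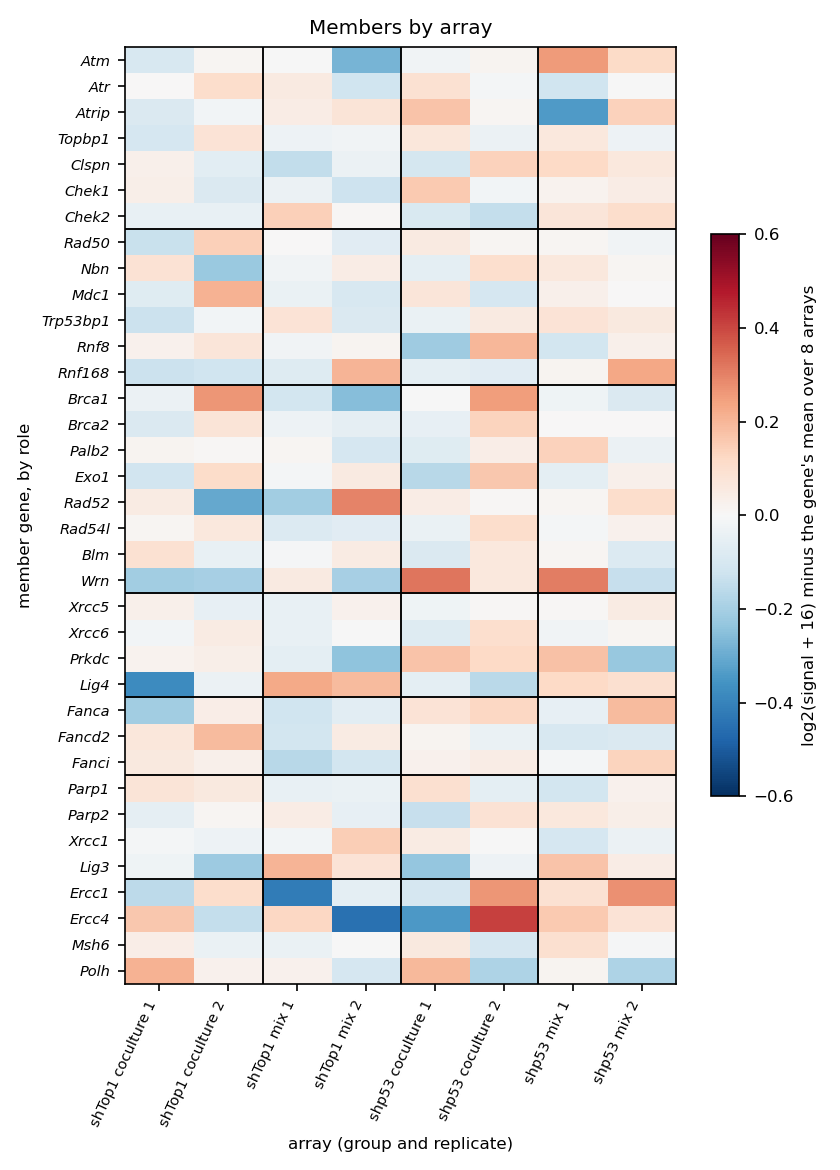
Log2(signal + 16) minus the gene's mean over the 8 arrays (colour, red above and blue below the mean) for each member (rows, by role) in each array (columns, by group and replicate). Lig4, Lig3 and Chek2 lie below their means in all 4 coculture columns and above them in all 4 mix columns, and few other rows follow the groups.

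Where several probe sets read 1 gene, they often did not give 1 answer. Of the 85 probe sets, 77 lay above the filter, and 19 members had more than 1 there. In 13 of these the averaged coculture differences had both signs. The 13 were Atr, Brca1, Chek1, Ercc1, Ercc4, Fanca, Fancd2, Lig3, Parp1, Polh, Rad54l, Topbp1 and Trp53bp1. The probe set used above is the one with the highest mean. These 36 had a median signal of 1172 and a median difference of 0.016, and the other 41 had a median signal of 164, 17 above 0 and a median of -0.04. With each probe set tested by itself, 0% of 26118 passed in this comparison, and no member's probe set passed in any. At an unadjusted p under 0.05 there were 8 member probe sets, 1 higher and 7 lower, against 5.61% higher and 5.15% lower of all.

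The higher one was the Polh probe set with a mean signal of 373, which had 485 and 417 in the shTop1 coculture, against 333 and 356 in the shTop1 mix, and 377 and 399.7 in the shp53 coculture, against 336 and 305 in the shp53 mix. All 4 coculture values lay above all 4 mix values, and the log2 difference was 0.32 (limma unadjusted p = 0.0115, adjusted p = 0.399). Of the other Polh probe sets, 1 dim one was below 0 (-0.35) and the others had 0.12 and 0.36. The Ercc4 probe set with a mean signal of 85.7 had the smallest p among the member probe sets in this comparison (limma unadjusted p = 0.000722, adjusted p = 0.377). It had 48.7 and 55.4 in the shTop1 coculture, against 105 and 125 in the shTop1 mix, and 84.1 and 89.2 in the shp53 coculture, against 97.1 and 106 in the shp53 mix. The log2 difference was -0.57, while the 3 other Ercc4 probe sets had 0.04 to 0.12. The Parp1 probe set with a mean signal of 246 had 177 and 159.6 in the shTop1 coculture, against 319 and 322 in the shTop1 mix, and 319 and 212 in the shp53 coculture, against 263 and 255 in the shp53 mix. The shTop1 coculture values were the lowest, and the 3 bright Parp1 probe sets had averaged differences of -0.10 to 0.15. A pair of dim Fancd2 probe sets (-0.48 and -0.49) and a dim Wrn probe set (-0.53) completed the lower ones beside those of Lig4 and Lig3. For Brca1, 3 of 4 probe sets were above 0 (0.11, 0.20 and 0.24), and the dimmest lay at -0.06. Which transcripts each probe set reads was not tested.

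**Figure D5:**
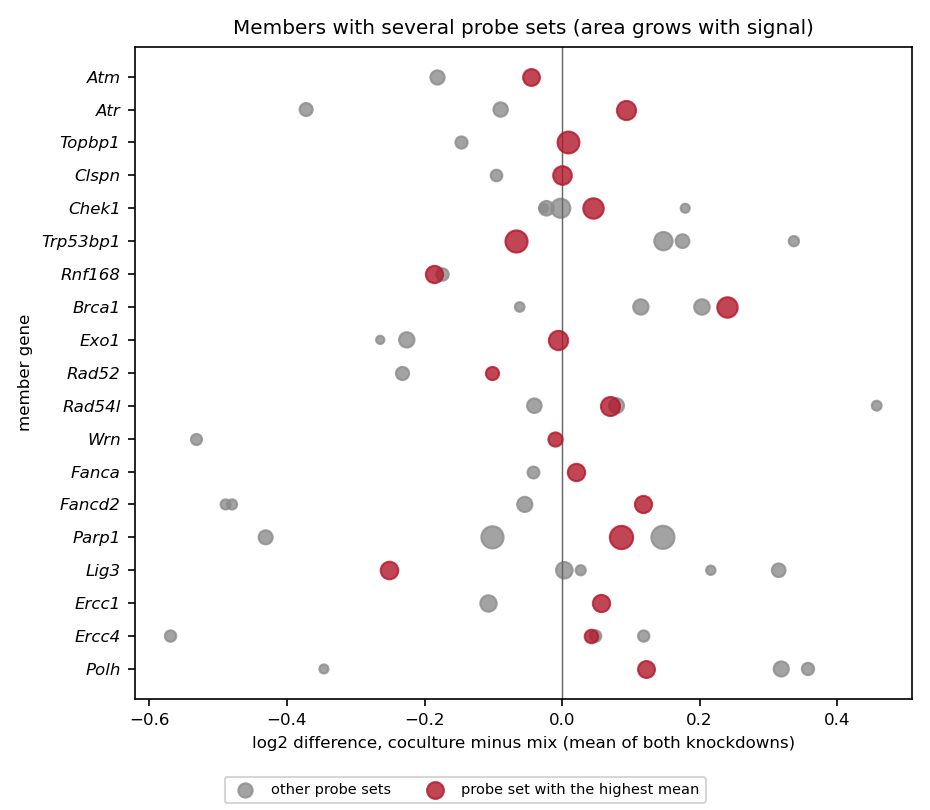
Averaged log2 difference, coculture minus mix (x axis), of every probe set above the filter for the 19 members with more than 1 (y axis), with red for the probe set of highest mean, grey for the others and an area that grows with signal. Small, dim points spread the farthest from 0, and in 13 rows points lie on both sides of it.

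Genes of the same pathways outside the members were read from a list of 93, of which 83 were named and tested. In the averaged comparison 0 passed (limma, smallest adjusted p = 0.357), 42 lay above 0 and the median was 0.003. Of them, 5 were higher (6.02%) and 3 lower (3.61%) at an unadjusted p under 0.05, against 7.09% and 4.63% of all genes. The 5 with the smallest p are described, none of which passed the test. Xpc, which recognises bulky adducts and is a known p53 target, had signals of 413 and 399.9 in the shTop1 coculture, against 329.7 and 305 in the shTop1 mix, and 401 and 459 in the shp53 coculture, against 329.9 and 387 in the shp53 mix. All 4 coculture values were the higher, with a log2 difference of 0.30 ± 0.09 (SE, limma unadjusted p = 0.0147, adjusted p = 0.357). Ube2t, which brings ubiquitin to the Fanconi clamp, had 3039 and 3754 in the shTop1 coculture, against 3018 and 2927 in the shTop1 mix, and 3798 and 3451 in the shp53 coculture, against 2752 and 2759 in the shp53 mix. The groups were apart, with 0.29 ± 0.09 (SE, adjusted p = 0.367).

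The nuclease gene Mus81 had 249 and 218 in the shTop1 coculture, against 151 and 189.7 in the shTop1 mix, and 211 and 232 in the shp53 coculture, against 181 and 209 in the shp53 mix. It had a log2 difference of 0.30 (limma adjusted p = 0.381). Gen1, which cuts recombination junctions, had 244 and 185 in the shTop1 coculture, against 308 and 332 in the shTop1 mix, and 199 and 301 in the shp53 coculture, against 316 and 304 in the shp53 mix. Its log2 difference was -0.44 (limma adjusted p = 0.378). Msh3, a gene of mismatch repair, had 760.0 and 841 in the shTop1 coculture, against 849 and 972 in the shTop1 mix, and 815 and 704 in the shp53 coculture, against 1150 and 919 in the shp53 mix. Its log2 difference was -0.31 (limma adjusted p = 0.382). For all 3 the coculture arrays were apart from the mix arrays in each knockdown. By pathway, 10 of 15 other base excision and single-strand break genes were above 0 (median 0.09), and 7 of 9 other Fanconi genes were below 0 (median -0.13), while the 3 Fanconi members lay above 0 by their brightest probe sets, and Fanca and Fancd2 below 0 by the mean of their probe sets.

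Some members are transcribed away from a close neighbour. In RefSeq, 7 members had the start of a protein-coding gene on the opposite strand within 1000 bases upstream, and 6 of these neighbours were tested. Lig4 (-0.32) starts 37 bases from Abhd13, which lay at -0.03 in the averaged coculture comparison. Brca1 (0.24) starts 152 bases from Nbr1 (-0.04). For Polh (0.12) and Xpo5 (-0.32, limma unadjusted p = 0.0227), 170 bases apart, and for Atm (-0.04) and Npat (-0.20), 376 bases apart, the signs differed in one pair and matched in the other. The differences between neighbours were not tested.

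Several measures of cell state were read beside the members in the averaged comparison. Of 19 S-phase genes, 10 were above 0, the median was 0.008, and 1 was higher and 2 lower at an unadjusted p under 0.05. Their summed signal was 133903 to 142612 in the shTop1 coculture, against 134786 to 135083 in the shTop1 mix, and 137901 to 138403 in the shp53 coculture, against 132970 to 137075 in the shp53 mix. For embryonic stem cell markers the median was 0.06, 7 of 10 were above 0, and 0 were higher and 1 lower at that level. Their sum was 120662 to 121180 in the shTop1 coculture, against 116663 to 119329 in the shTop1 mix, and 113396 to 116213 in the shp53 coculture, against 116873 to 119096 in the shp53 mix. All 8 primitive endoderm markers lay above 0 (55.3% of all genes did), with a median of 0.10 and 0 at that level. Their sum was 43072 to 43086 in the shTop1 coculture, against 39647 to 41444 in the shTop1 mix, and 43662 to 46085 in the shp53 coculture, against 40408 to 42242 in the shp53 mix. The largest parts of each primitive endoderm sum were Col4a1 (16243 to 18825 over the 8 arrays) and Lamb1 (13613 to 16288). Of the 7 fibroblast markers tested, 6 lay above 0 with a median of 0.30, and 2 were higher at an unadjusted p under 0.05. The sums over all 12 named fibroblast markers, the 5 below the filter included, were low, at 2114 to 2257 in the shTop1 coculture, against 1991 to 2049 in the shTop1 mix, and 2458 to 2523 in the shp53 coculture, against 2076 to 2133 in the shp53 mix. Most of each fibroblast sum came from Pdgfra alone, with signals of 1125 to 1543 over the 8 arrays. The part of any of these in the members' values was not tested.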

How the data were processed

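Total RNA of the 8 samples was labelled with biotin and hybridised to Affymetrix arrays of 45101 probe sets, per the labels. The deposited values are linear intensities, 1 per probe set and array, which the authors had scaled to 1 trimmed mean (seen in the values) with a tool not given in the sources used here. Of the probe sets, 34958 had 1 gene symbol. After quantile normalization, log2(intensity + 16) was taken, which understates changes of low genes. Each gene was read from its probe set of highest mean, kept where that mean was at least the 30th percentile over the array. A model of the 4 groups on all arrays was fitted by lmFit and eBayes of limma 3.58.1 in R 4.3.3, with no variance trend and 4 residual degrees of freedom. P-values are two-sided, Benjamini-Hochberg adjusted over 14267 genes, threshold 0.05. Fits were also run on simulated data with known changes. The noise was independent and normal with the fitted variances, so those assumptions were not tested.

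The members, role groups, other repair genes and marker lists were chosen with earlier results of these data known. Named were, by role group, the member with the smallest p in any of 5 comparisons (2 in groups above 4 members), members whose probe sets differed in sign, the 5 other repair genes with the smallest p, and Top1. Prkdc, Fancd2, Fanci, Ercc4, Atrip and the single probe sets and neighbours given with values were chosen after their values were seen. Alternatives were a replicate block, other scalings, filters, pseudocounts, variances and probe set rules, only the groups compared, and leaving out each array. Replicate numbers did not pair samples (correlations of deviations -0.007 to 0.05). The level of p53 itself is not reported. The number of arrays limits the precision.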

Additional observations from a re-analysis of the deposited data

How the results depend on the processing

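No member passed in any comparison under any of the 17 or 18 alternatives tried (lowest adjusted p 0.21, in the averaged coculture comparison). Signs held in all alternatives for 9 of 36 members in the averaged comparison (Brca1, Chek1, Chek2, Fanci, Lig4, Polh, Prkdc, Rad54l and Rnf168), 15 with shTop1, 8 with shp53, 12 in the difference of the coculture effects and 7 between hairpins. The replicate block, variance settings and filters leave an estimate unchanged, as does averaging probe sets where 1 was read, so these could not turn a sign. Robust, trended variances in limma called 3 genes with shTop1, 1 with shp53 and 31 in the averaged comparison, none of them members. Leaving out 1 array, the genes at an unadjusted p under 0.05 ranged from 760 to 1525 with shTop1 (1170 with all arrays; 760 and 761 without shTop1 mix replicate 2 and 1), from 1100 to 2081 averaged (1672; 1100 without shTop1 mix replicate 2) and from 557 to 1055 between hairpins (670; 1055 without shTop1 coculture replicate 2). The members' median then ranged from 0.0225 to 0.0573 with shTop1, from -0.0478 to 0.0289 with shp53 and from -0.0113 to 0.0296 averaged, the last 2 lowest without shp53 coculture replicate 2. With median centring the members' medians were 0.0863 (shTop1), 0.0609 (shp53), 0.0681 (averaged) and 0.0337 (hairpins), while all genes moved to between 0.05 and 0.08. Averaging each gene's probe sets gave medians of -0.0007 (shTop1), -0.0408 (shp53) and -0.0151 (averaged). It turned 9 members in the averaged comparison, Lig3 (0.062), Fancd2 (-0.2263), Ercc1 (-0.1296), Atr (-0.1228), Trp53bp1 (0.1163), Ercc4 (-0.09), Parp1 (-0.0751), Topbp1 (-0.0696) and Fanca (-0.0113), and values turned between hairpins for Atm (0.0013), Ercc1 (0.162) and Top1 (0.147). Mdc1 with shTop1 ranged from -0.0044 to 0.2795 leaving out 1 array, the lowest without shTop1 coculture replicate 2. With the replicate block 0 genes passed in any comparison, as without it, and 1187, 987, 1692, 616 and 729 genes had an unadjusted p under 0.05, against 1170, 979, 1672, 614 and 670 without the block. Testing every probe set by itself was added after seeing the data. The cause of these changes was not tested.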
